A study of Homo sapiens with 12 samples.

Results

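Vemurafenib-resistant A375 cells were compared with vemurafenib-sensitive A375 cells, 3 libraries against 3, which are 6 of the 12 libraries of the series. A375 is an established human melanoma cell line, and the other 6 libraries hold the same 2 states of the melanoma line SKMel28. The members were taken by title, all gene rows were used, and every difference is given as resistant minus sensitive. Both A375 groups were grown in DMEM with 10% FBS, and poly(A) RNA was sequenced. Culture medium of the resistant cells, A375-R, contained vemurafenib at 1 µmol/L. The labels mention no drug for sensitive A375, so the resistant state and the presence of the drug cannot be told apart. They also leave unsaid whether A375-R is 1 clone or a pool, and whether replicate libraries come from different cultures; a p-value here reflects the spread of these libraries, which may be technical.

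Vemurafenib blocks the mutant BRAF kinase, which otherwise keeps the RAS, RAF, MEK and ERK cascade active without a growth factor signal. Melanoma cells that survive this block are known to regain ERK or PI3K signalling through receptor tyrosine kinases, changed RAS, RAF or MEK proteins or loss of feedback inhibitors. They are also known to move between a melanocyte-like state, ruled by SOX10 and MITF, and undifferentiated states with other receptors, matrix and adhesion genes. The comparison is described here in that order: lineage genes, receptors and their ligands, the cascade itself, surface and matrix genes, immune genes, and position in the genome.

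The A375 libraries held 28496518 to 37721363 reads assigned to genes, and log2 CPM (CPM are a gene's counts scaled to the library size with TMM) correlated at 0.992 to 0.994 within a group and at 0.960 to 0.962 between the groups. Of the reads on genes, 1.85% to 1.99% were mitochondrial in the sensitive and 2.11% to 2.27% in the resistant libraries. As a check of the line, all 17 genes that sensitive A375 held at 50 CPM or more and both SKMel28 groups under 0.1 CPM were present in the resistant libraries, the lowest at 23.8 CPM. Of 18 genes with the opposite pattern, 15 were under 0.1 CPM in the resistant A375 libraries. Sensitive A375 expressed the lineage marker SOX10 but held PMEL, MLANA, TYRP1, DCT and TYR, which make up the pigment machinery, under 1 CPM, with no read of TYR in any of the 6 libraries.

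Of 15506 genes tested, 51.3% were called at an edgeR adjusted p below 0.05, 25.0% higher and 26.3% lower in resistant cells, and the median log2 fold change over all of them was 0. The balance turned with the scaling: DESeq2 called 4357 higher and 3561 lower, edgeR with DESeq2 size factors 4440 and 3639, and edgeR with TMM computed without the genes of 1p, 13q and chromosome 20 called 3435 and 4501. With 8 residual degrees of freedom and a biological coefficient of variation of 4.20%, small differences were called: 3128 of the 7959 calls were changed by less than 1.25-fold. At 2-fold or more, 10.5% of the tested genes were called, 4.06% higher and 6.44% lower. Large changes went mostly one way by fitted fold: 215 genes fell and 54 rose at least 16-fold. These counts include genes without a read in a group, whose fitted fold can exceed what their reads bound. BEND5, for example, was fitted at 83.5-fold lower, with a bound of at least 10-fold lower. There were 19 genes at 1 CPM or more in the sensitive cells without a read in any resistant library, while TCEAL7 and WBSCR17, chosen after their values were seen, were the 2 with the opposite pattern. The groups did not overlap for 57.9% of the tested genes. In bulk RNA, fewer cells expressing a gene and less RNA per cell cannot be told apart.

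Genes of the neural crest and SOX family were more often lower than higher in resistant cells, and SOX9 and SOX4 were among those that rose. SOX10 (22q, chr22:37970686-37987422, the transcription factor that specifies the melanocyte lineage) was at 325, 319.6 and 332 CPM in the sensitive libraries and 0.0839, 0.178 and 0.151 CPM in the resistant ones. SOX9 (17q, chr17:72121020-72126420), a related factor of the same SOXE family that drives cartilage and stem cell programmes, was at 30.2, 27.3 and 28.8 CPM in the sensitive and 201, 206 and 195 CPM in the resistant libraries. SOX10 and SOX9 therefore changed in opposite directions, and neither gene's groups overlapped (log2 fold change 2.80 ± 0.05 SE, adjusted p = 2.40e-37 for SOX9; log2 fold change -11.18 ± 0.09 SE, adjusted p = 4.63e-51 for SOX10). The SE is taken from the F statistic. It can be smaller than counting error where a group has few reads, as for SOX10 in resistant cells. SOX4, a progenitor factor of another SOX family, was at 11.2, 11.01 and 10.6 CPM in sensitive and 30.2, 30.1 and 26.5 CPM in resistant libraries (log2 fold change 1.40 ± 0.07 SE, adjusted p = 1.02e-21). S100B, a calcium-binding protein used as a melanoma marker, fell from 10.4, 11.1 and 11.2 CPM to 0.168, 0.0892 and 0.0303 CPM (log2 fold change -6.74 ± 0.17 SE, adjusted p = 4.26e-32). S100A1, from the same family and also a melanocyte marker, fell with it, from 7.14 to 0.755 CPM (-3.24 ± 0.14).

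Of the 44 genes in the SOX and neural crest list, 42 were tested, 9 rose and 24 fell, 17 of them at least 2-fold lower. The called share was 78.6%, beside 51.3% of all tested genes. The list's median log2 fold change was -0.83, beside 0 for all genes tested. The 35 tested members outside chromosome arms 1p, 13q, 20p and 20q, where genes of these cells were lower in general (below), had a median of -0.84. NGFR, the low-affinity nerve growth factor receptor that marks neural crest-like melanoma cells, was at 161, 163 and 163 CPM in sensitive and 96.2, 88.7 and 90.5 CPM in resistant libraries (log2 fold change -0.82 ± 0.04 SE, adjusted p = 2.24e-20). It fell while staying clearly expressed, unlike SOX10 and S100B. MITF, the master regulator of pigment cells, fell modestly, from 39.6 to 30.95 CPM (log2 fold change -0.36 ± 0.05 SE, adjusted p = 6.89e-09). MSX1 and FOXD1, homeobox and forkhead factors of early development, rose (0.76 ± 0.06 and 0.62 ± 0.08).

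**Figure D1:**
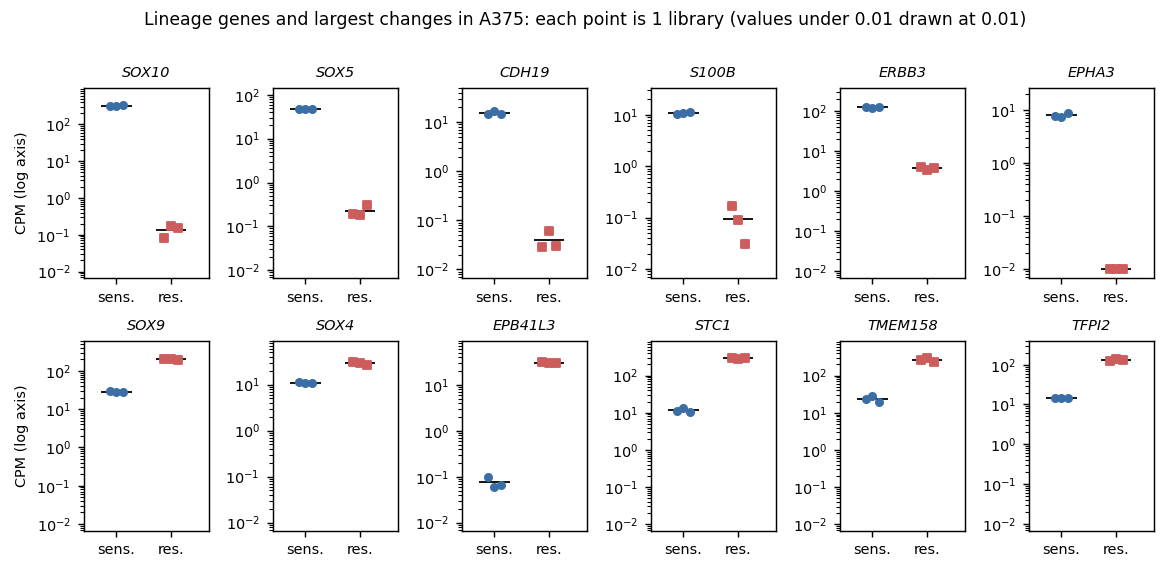
CPM on a log axis in the 3 sensitive (circles) and 3 resistant (squares) A375 libraries for 12 genes, with horizontal lines at the means; values under 0.01 CPM are drawn at 0.01. SOX10, SOX5, CDH19, S100B, ERBB3 and EPHA3 are lower in every resistant library, and SOX9, SOX4, EPB41L3, STC1, TMEM158 and TFPI2 are higher in every one.

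The pigmentation list showed no common direction. Of its 33 genes 31 were tested, 10 rose and 7 fell, and the median of 0.30 became 0.10 once genes without a read in a group were set at their bound. The called share, 54.8%, was near the 51.3% of all tested genes. Without sensitive replicate 1 there were 6 rises, and without resistant replicate 1 there were 4 falls. Leaving out single libraries gave medians of 0.11 to 0.39, lower by over 1.5 times without resistant replicate 1, resistant replicate 3 or sensitive replicate 2. GPNMB, a melanosomal glycoprotein, rose from 24.4 to 48.6 CPM (1.00 ± 0.04), as did MLPH, the linker that tethers melanosomes to myosin, from 18.6 to 36.6 CPM (0.98 ± 0.05), and the small GTPase gene RAB38 (0.53 ± 0.06). EDNRB, the endothelin receptor that melanoblasts need, fell from 7.85 to 3.12 CPM (-1.32 ± 0.10). TYRP1, called higher from 0.192 to 0.347 CPM, and DCT, with 4 reads over the resistant and none over the sensitive libraries, had overlapping groups. Both lost the call without single libraries, among them sensitive replicate 2 (adjusted p = 0.0829 for TYRP1 and 0.0854 for DCT).

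Markers of other cell types were low in both groups, with some exceptions. KRT14, the keratin of basal keratinocytes, fell from 24.5, 24.3 and 27.8 CPM to 0.391, 0.714 and 0.394 CPM, and SFN fell from 21.1 to 13.4 CPM. KRT15 rose from 13.1 to 16.2 CPM (0.30 ± 0.10), and KRT10, which made up most of the summed level below, was at 95.9 and 88.7 CPM and was not called (log2 fold change -0.11 ± 0.05 SE, adjusted p = 0.0525). Of the other keratinocyte markers, KRT1, DSG3 and LOR had no read in any of the 6 libraries. IVL had 5 and TP63 had 4 reads over the resistant libraries, all of them in resistant replicate 1, and 0 and 1 over the sensitive libraries. The summed level of the 10 keratinocyte markers was 153 to 159 CPM in sensitive and 114 to 122 CPM in resistant libraries. The blood cell markers summed to 38.5 to 43.1 CPM in sensitive and 58.6 to 62.6 CPM in resistant libraries, most of it CD68, a lysosomal protein that rose (30.97 to 57.5 CPM, 0.89 ± 0.05). LYZ, the lysozyme gene, fell (8.66 to 2.07 CPM, -2.06 ± 0.20), while PTPRC had 9 reads over the resistant and 3 over the sensitive libraries and CD3E and MS4A1 had none. CD3D, another blood cell marker, had 51 reads over the resistant libraries and 1 over the sensitive ones. It was called higher (log2 fold change 5.22 ± 0.98 SE, adjusted p = 1.94e-05), at a mean of 0.501 CPM in resistant cells. The fibroblast markers summed to 9.70 to 10.6 and 5.15 to 5.29 CPM, and the endothelial markers to 12.2 to 14.8 and 10.5 to 11.5 CPM. The part of other cell types in the results was not tested.

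Beyond the lineage genes, the largest rises included genes of secreted and membrane proteins. LAMA1, the laminin alpha chain of early basement membranes, was at 3.12, 3.51 and 3.49 CPM in sensitive and 38.5, 38.9 and 41.4 CPM in resistant libraries (log2 fold change 3.56 ± 0.09 SE, adjusted p = 7.97e-20). TMEM158, a membrane protein gene known to be induced by activated RAS, was at 23.1, 28.4 and 19.99 CPM and 263, 295 and 240.3 CPM (log2 fold change 3.48 ± 0.14 SE, adjusted p = 2.86e-08). TFPI2, a secreted inhibitor of serine proteases, rose from 14.5 to 130.1 CPM (log2 fold change 3.16 ± 0.06 SE, adjusted p = 7.48e-37). These 3 genes were well separated between the groups, with TMEM158 varying more between libraries of a group than the other 2. FHL1, a LIM-domain protein of muscle and cytoskeleton (2.74 ± 0.07), PDE2A, a phosphodiesterase of cyclic nucleotides (2.64 ± 0.10), and the cancer-testis antigen gene MAGEB2 (2.63 ± 0.16) also rose.

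Among the 15 largest falls were genes of cell contact and secretion. SERPINA3, the secreted protease inhibitor alpha-1-antichymotrypsin, was at 17.4, 18.2 and 22.9 CPM in sensitive and 0.280, 0 and 0 CPM in resistant libraries (log2 fold change -7.58 ± 0.41 SE, adjusted p = 1.42e-10). GJA5, which encodes the gap junction protein connexin 40, fell from 13.1 to 0.148 CPM (-6.45 ± 0.27), and TENM2, a teneurin of neuronal cell contacts, from 29.1 to 0.493 CPM (-5.88 ± 0.19). SHISA2, an inhibitor of WNT and FGF receptor maturation, fell from 20.4 CPM by a log2 fold change of -7.65 ± 0.28, and ACSS1, the mitochondrial acetyl-CoA synthetase, from 13.3 to 0.183 CPM (-6.14 ± 0.18). GAS7, a growth arrest gene with a role in membrane shape, went from 43.996 to 0.329 CPM (-7.03 ± 0.12). In absolute terms the largest losses included the protease inhibitor SERPINE2 (2463 to 1203 CPM, -1.03 ± 0.03), the matrix protein SPARC (1155 to 489 CPM, -1.24 ± 0.03) and TIMP3 (1317 to 381 CPM, -1.79 ± 0.03), the inhibitor of metalloproteinases. The largest gains in CPM were of the mitochondrial transcript MT-CO1 (3782 to 4459.8 CPM, 0.24 ± 0.03) and S100A6 (2993 to 3448 CPM, 0.20 ± 0.03), small in fold, and of SQSTM1, an autophagy receptor (598 to 943 CPM, 0.66 ± 0.03). ACTB, among the 10 largest gains at 0.11 ± 0.04, lost its call when TMM factors were computed without the genes of the shifted arms (adjusted p = 0.0703) and without sensitive replicate 3 (adjusted p = 0.0994).

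Receptor tyrosine kinases were more often lower than higher, with the largest changes all falls. ERBB3 (12q, chr12:56076799-56103505), the neuregulin receptor that activates PI3K, was at 125, 120.4 and 128 CPM in sensitive and 3.998, 3.39 and 3.78 CPM in resistant libraries (log2 fold change -5.06 ± 0.06 SE, adjusted p = 1.99e-43). EPHA3 (3p, chr3:89107524-89482134), an ephrin receptor, was at 7.58, 7.47 and 8.81 CPM in the sensitive libraries and had no read in the resistant ones, so its expression was at least 271-fold lower, with 3 reads over the group as the floor. EPHA7 fell from 10.4 to 0.293 CPM (-5.14 ± 0.25), EPHB3, chosen after its values were seen, from 7.40 to 0.568 CPM (-3.70 ± 0.21), and the VEGF receptor genes FLT1 and KDR from 5.83 to 0.0379 CPM (-7.09 ± 0.36) and 3.84 to 0.383 CPM (-3.31 ± 0.28). IGF1R, the receptor of the IGF1 pathway whose role in resistance the series asks about, was at 85.5, 86.1 and 86.6 CPM in sensitive and 46.3, 50.7 and 49.6 CPM in resistant libraries (log2 fold change -0.82 ± 0.04 SE, adjusted p = 2.91e-20). All resistant libraries lay below all sensitive ones for each of these genes.

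The receptors that rose and reached 2 CPM did so by less than 2-fold. EGFR, the epidermal growth factor receptor, was at 38.9, 41.1 and 40.7 CPM in sensitive and 57.4, 56.996 and 60.9 CPM in resistant libraries (log2 fold change 0.54 ± 0.06 SE, adjusted p = 2.53e-10). The hepatocyte growth factor receptor MET rose from 252 to 315 CPM (0.32 ± 0.04), AXL from 491 to 580.4 CPM (0.24 ± 0.04), MST1R from 5.83 to 9.76 CPM (0.74 ± 0.14) and FGFR4 from 5.88 to 8.43 CPM (0.52 ± 0.10). PDGFRB, often raised in resistant melanoma lines, was at 16.3, 17.8 and 17.2 CPM and 15.9, 16.9 and 13.7 CPM, with overlapping groups (log2 fold change -0.14 ± 0.10 SE, adjusted p = 0.24). ERBB2, the partner of ERBB3, was at 72.9, 82.1 and 71.9 CPM in sensitive and 76.04, 74.4 and 73.1 CPM in resistant libraries and did not pass the test (log2 fold change -0.02 ± 0.05 SE, adjusted p = 0.756); it was chosen after its values were seen. KIT was under the filter on low counts. Of 58 receptors, 48 were tested, 12 rose and 19 fell. The called share was 64.6%, and 33.3% changed at least 2-fold, beside 51.3% and 10.5% of all tested genes. At least 2-fold, 3 rose and 13 fell, and the median was -0.39. Fitting the 6 A375 libraries alone gave a median of -0.24, and leaving out single libraries gave -0.36 to -0.22. Downstream of the insulin and IGF receptors, IRS1 rose from 76.2 to 115 CPM (0.59 ± 0.05) and IRS2, on 13q, fell from 148 to 88.95 CPM (-0.73 ± 0.04), while INSR fell (-0.50 ± 0.10); IRS1, IRS2 and INSR were chosen after their values were seen.

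Ligands of these receptors were more often higher than lower. FGF5 (4q, chr4:80266599-80336680), a fibroblast growth factor, was at 1.31, 1.04 and 0.865 CPM in sensitive and 9.39, 10.7 and 11.9 CPM in resistant libraries (log2 fold change 3.29 ± 0.17 SE, adjusted p = 2.22e-20). HBEGF, a ligand of EGFR, was at 21.4, 25.003 and 22.1 CPM and 63.1, 66.4 and 62.4 CPM (log2 fold change 1.49 ± 0.06 SE, adjusted p = 4.70e-24), while TGFA, another ligand of EGFR, was at 96.9, 98.9 and 100.3 CPM and 32.5, 31.2 and 29.997 CPM (log2 fold change -1.66 ± 0.06 SE, adjusted p = 1.44e-27). HBEGF and TGFA moved in opposite directions, each without overlap. The naming rule takes the largest changes of a list in each direction, and other EGFR ligands are not reported here. PGF, a ligand of FLT1 (1.27 ± 0.10), and PROS1, a ligand of TYRO3 and MERTK (1.24 ± 0.06), rose, and GDNF, the ligand of the RET complex (-3.78 ± 0.35), FGF12, which stays inside the cell (-5.07 ± 0.40), and EFNB2, a ligand of EPH receptors (-1.44 ± 0.08), fell. Of 53 ligand genes 44 were tested, 16 rose and 7 fell, 4 in each direction at least 2-fold, with a median of 0.19. The share called in either direction was 52.3%, near the 51.3% of all tested genes. The difference between the receptor and ligand lists was not tested.

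**Figure D2:**
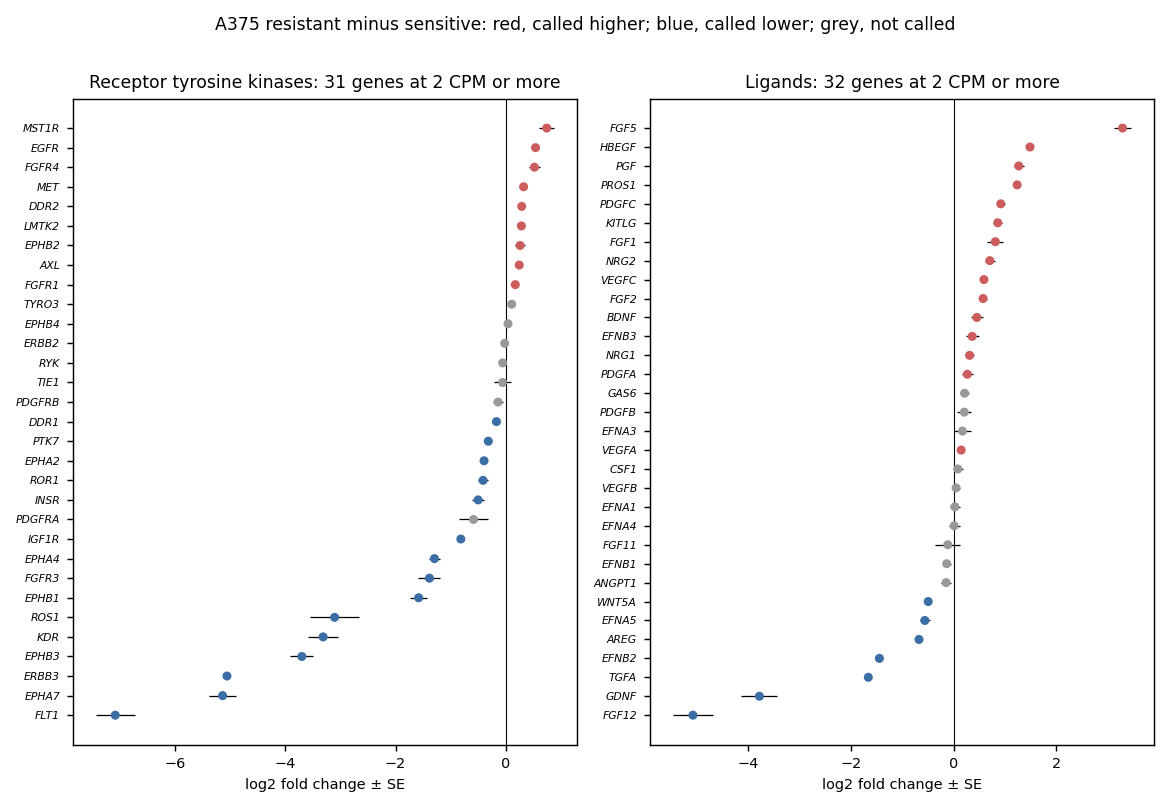
Log2 fold change with its standard error for the 31 receptor tyrosine kinase genes and 32 ligand genes that were tested, reached 2 CPM in the higher group and had reads in both groups; red, called higher; blue, called lower; grey, not called. The largest receptor changes are falls (FLT1, EPHA7, ERBB3), and the ligands run from FGF12 at -5.07 to FGF5 at 3.29; EPHA3 has no read in resistant cells and is not drawn.

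Within the RAS, RAF, MEK and ERK pathway, changes were small and went both ways. Of 50 genes, all tested, 16 rose and 20 fell, but only 2 rises and 1 fall were at least 2-fold, and the median was -0.02. The called share was 72%, and 6% changed at least 2-fold, beside 51.3% and 10.5% of all tested genes. BRAF itself was at 10.7, 11.3 and 11.2 CPM in sensitive and 11.99, 10.05 and 11.3 CPM in resistant libraries, with overlapping groups (log2 fold change 0.01 ± 0.10 SE, adjusted p = 0.98). Counts per gene do not show splice forms, amplification of an allele or mutations. NRAS, on 1p, fell from 92.8 to 71.4 CPM (-0.38 ± 0.04), MAP2K1, which encodes MEK1, rose from 117 to 144 CPM (0.30 ± 0.04), and MAP3K8, the kinase COT, was under 1 CPM in both groups (log2 fold change -0.34 ± 0.33 SE, adjusted p = 0.412).

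The phosphatase and inhibitor genes of this pathway named here went both ways. The naming rule takes the largest changes of a list in each direction, and other feedback inhibitors of ERK are not reported here. DUSP6, a phosphatase of ERK and a standard readout of its activity, was at 175, 188 and 181 CPM in sensitive and 313, 312 and 303 CPM in resistant libraries (log2 fold change 0.77 ± 0.04 SE, adjusted p = 2.88e-22). DUSP5, a nuclear ERK phosphatase, rose from 46.7 to 89.1 CPM (0.93 ± 0.06), and DUSP1, which acts on several MAP kinases, from 11.01 to 24.996 CPM (1.18 ± 0.09). SPRY2, an inhibitor of receptor signalling on 13q, fell from 108 to 61.99 CPM (-0.80 ± 0.05), as did DUSP9 (-0.92 ± 0.12), DUSP10 (-1.02 ± 0.09) and RPS6KA1, the ERK-activated kinase RSK1 on 1p (-0.93 ± 0.05). Transcription factors below ERK were higher: FOSL1 (FRA1) rose from 416 to 625 CPM (0.59 ± 0.04), JUN from 60.5 to 88.3 CPM (0.55 ± 0.05) and MYC from 19.05 to 34.3 CPM (0.85 ± 0.06), and CCND1, cyclin D1, rose slightly (0.19 ± 0.03).

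Most of the PI3K, AKT and mTOR list was not called: 33 of its 34 genes were tested, 19 were not called, 6 rose and 8 fell, none rose 2-fold, and the median was 0.04. The called share was 42.4%, and 9.09% changed at least 2-fold, beside 51.3% and 10.5% of all tested genes. PIK3CD, the catalytic subunit p110 delta on 1p, fell from 27.4, 25.7 and 27.4 CPM to 9.73, 8.86 and 7.87 CPM (log2 fold change -1.60 ± 0.07 SE, adjusted p = 6.02e-24). MTOR, also on 1p, fell from 105 to 68.9 CPM (-0.61 ± 0.04), and DDIT4, a stress-induced inhibitor of mTORC1, from 178 to 77.2 CPM (-1.21 ± 0.04).

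Matrix genes held the highest share of changes of at least 2-fold among the 27 lists, 46.0% of the tested members, followed by matrix enzymes (45.3%), the SOX and neural crest list (45.2%) and adhesion (40.9%), beside 10.5% of all tested genes. The lists were chosen with earlier results of these data known, so this ranking is a description and has no test. Of 68 collagen, laminin and other matrix genes 63 were tested, 18 rose and 33 fell; 8 rises and 21 falls were at least 2-fold, and the median was -0.44. COL9A3, a cartilage collagen chain on 20q, was at 333, 311 and 339 CPM in sensitive and 27.2, 28.4 and 28.3 CPM in resistant libraries (log2 fold change -3.55 ± 0.05 SE, adjusted p = 5.33e-40). COL5A1, a fibrillar collagen chain, fell from 15.3 to 2.23 CPM (-2.78 ± 0.15), HAPLN1, the link protein of hyaluronan matrix, from 132 to 23.8 CPM (-2.48 ± 0.06), and TNC, tenascin-C, from 379 to 124 CPM (-1.61 ± 0.04). Laminin and basement membrane chains rose beside LAMA1: LAMB3 from 56.7 to 162 CPM (1.52 ± 0.05), COL4A5 from 4.63 to 12.6 CPM (1.45 ± 0.11) and the transmembrane collagen COL13A1 from 56.7 to 152 CPM (1.42 ± 0.05). The fibrillar and cartilage chains named here thus fell and the basement membrane chains named here rose; this grouping was noticed after the values were seen and has no test.

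Of 56 matrix enzymes and inhibitors 53 were tested, 21 rose and 24 fell, with 11 rises and 13 falls of at least 2-fold and a median of -0.05. The called share was 84.9%, beside 51.3% of all tested genes. The metalloproteinase genes MMP10 (0.400 to 4.18 CPM, 3.35 ± 0.32) and MMP1 (11.8 to 41.3 CPM, 1.80 ± 0.07) rose, as did PLAU, the urokinase plasminogen activator (1.46 ± 0.19), and HAS2, a hyaluronan synthase (4.39 to 20.6 CPM, 2.23 ± 0.09). The urokinase receptor gene PLAUR rose less, from 66.8 to 105 CPM (0.65 ± 0.05). MMP1, PLAUR and HAS2 were chosen after their values were seen. SERPINF1, which encodes the angiogenesis inhibitor PEDF, fell from 11.4 to 0.280 CPM (-5.31 ± 0.16), CEMIP, a hyaluronan-degrading protein, from 68.1 to 13.3 CPM (-2.36 ± 0.13), and the heparan sulfatase SULF1 from 2.69 to 0.0787 CPM (-5.04 ± 0.56).

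AP-1 is the factor formed by FOS and JUN family proteins such as FOSL1 and JUN. The search used the letters TGANTCA, with the middle base left free (N is any base). These letters are looser than the AP-1 site, which has C or G in the middle. The searched pattern is palindromic, so both strands give the same matches. The letters occurred in 7.76% of 27305 RefSeq promoters of 300 bases (250 before to 50 after the start), in 5.05% of the promoters of tested genes, in 9.52% of those of genes at least 2-fold higher and in 6.08% of those of genes at least 2-fold lower. A match is a description of the letters, not of binding. Stretches of 110 bases on the minus strand of GRCh38.p14 are shown with the searched letters in capitals. They were picked because they hold a match and belong to genes of a protease, a protease inhibitor and the urokinase receptor, all of which rose. The genes are MMP10 (chr11:102780629-102780738), TFPI2 (chr7:93890774-93890883) and PLAUR (chr19:43670280-43670389). The middle base is A in MMP10 and TFPI2, outside the stricter site, and G in PLAUR.
MMP10: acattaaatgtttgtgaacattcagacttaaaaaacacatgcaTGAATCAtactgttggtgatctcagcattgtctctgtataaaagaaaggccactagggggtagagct
TFPI2: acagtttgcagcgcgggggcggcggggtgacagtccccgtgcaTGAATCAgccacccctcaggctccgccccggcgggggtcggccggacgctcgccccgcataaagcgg
PLAUR: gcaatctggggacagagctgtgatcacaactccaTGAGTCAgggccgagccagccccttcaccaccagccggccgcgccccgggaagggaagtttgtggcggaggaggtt

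Adhesion receptors were lower more often than higher. Of 52 genes 44 were tested, 14 rose and 23 fell, with 4 rises and 14 falls of at least 2-fold and a median of -0.28. The called share was 84.1%, beside 51.3% of all tested genes. ITGB3, the integrin beta chain of the vitronectin receptor, was at 57.4, 62.5 and 66.01 CPM in sensitive and 6.88, 7.82 and 8.69 CPM in resistant libraries (log2 fold change -2.99 ± 0.07 SE, adjusted p = 3.93e-24). ITGB4, the hemidesmosome integrin chain, fell from 318 to 124 CPM (-1.35 ± 0.04), ITGB8 from 87.1 to 31.6 CPM (-1.46 ± 0.05) and CADM1, an immunoglobulin-type adhesion molecule, from 42.4 to 3.52 CPM (-3.60 ± 0.07); ITGB4 and ITGB8 were chosen after their values were seen. The collagen-binding integrin chains ITGA2 (66.6 to 164 CPM, 1.30 ± 0.05), ITGA10 (1.16 ± 0.09) and ITGA11 (2.29 ± 0.23) rose together, and NCAM1, the neural cell adhesion molecule, rose from 2.28 to 10.1 CPM (2.15 ± 0.15).

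Protocadherins, cell contact proteins of neural cells, changed in both directions. In the beta cluster PCDHB10 (1.24 ± 0.21), PCDHB13 (1.19 ± 0.15), PCDHB11 (1.06 ± 0.25) and PCDHB15 (0.93 ± 0.20) rose, from means of 1.14 CPM (PCDHB11) to 2.997 CPM (PCDHB13) in sensitive cells. The non-clustered PCDH20 (2.66 to 0.0961 CPM), PCDH18 (4.06 to 0.348 CPM), PCDH7 (2.38 to 0.268 CPM) and PCDH9 (12.3 to 4.15 CPM) fell. Of 43 members 40 were tested, 19 rose and 9 fell, and the median was 0.26. The called share was 70%, and 30% changed at least 2-fold, beside 51.3% and 10.5% of all tested genes. Cluster members share sequence and their counts are uncertain.

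Genes of the invasive, mesenchymal state moved as a mixed group: of 42 genes 40 were tested, 22 rose and 11 fell, with a median of 0.15. The called share was 82.5%, and 17.5% changed at least 2-fold, beside 51.3% and 10.5% of all tested genes. HMGA2, a chromatin protein of embryonic cells, was at 275, 265 and 264 CPM in sensitive and 503, 504 and 522 CPM in resistant libraries (log2 fold change 0.93 ± 0.03 SE, adjusted p = 3.83e-26). NT5E, the surface nucleotidase CD73, rose from 94.3 to 185 CPM (0.97 ± 0.04). In contrast S100A4, a calcium-binding protein known from metastatic cells, was at 195, 203 and 209 CPM in sensitive and 20.5, 19.6 and 17.1 CPM in resistant libraries (log2 fold change -3.40 ± 0.06 SE, adjusted p = 7.53e-38). SNAI1, a factor of epithelial-mesenchymal transition, fell from 10.96 to 4.86 CPM (-1.17 ± 0.15), ZEB2 fell (-0.38 ± 0.06), and ZEB1 was at 39.2, 38.1 and 38.97 CPM and 31.8, 34.3 and 40.05 CPM, not called and overlapping (log2 fold change -0.13 ± 0.07 SE, adjusted p = 0.128). WNT5A, a ligand of the invasive state, fell from 63.5 to 45.1 CPM (-0.49 ± 0.06).

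Receptors and ligands of secreted signals changed member by member. TGFBR2, the type II receptor of TGF-beta, was at 91.5, 90.6 and 96.5 CPM in sensitive and 244, 242 and 248 CPM in resistant libraries (log2 fold change 1.40 ± 0.04 SE, adjusted p = 9.49e-29). GDF15, a stress-induced TGF-beta family cytokine, rose from 6.70, 5.70 and 8.31 CPM to 43.8, 40.4 and 40.6 CPM (log2 fold change 2.60 ± 0.12 SE, adjusted p = 1.77e-09), and NOG, an extracellular BMP antagonist, from 8.56 to 22.7 CPM (1.40 ± 0.11). BAMBI, a decoy receptor, fell from 10.8 to 1.97 CPM (-2.46 ± 0.10), SMAD6, an inhibitory SMAD, from 23.1 to 8.50 CPM (-1.44 ± 0.10), and FSTL3, an activin antagonist, from 115 to 52.03 CPM (-1.14 ± 0.05). Of 56 genes of TGF-beta, activin and BMP signalling 51 were tested, 18 rose and 14 fell, with a median of 0.07. The called share was 62.7%, and 19.6% changed at least 2-fold, beside 51.3% and 10.5% of all tested genes.

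In the WNT and NOTCH list 56 of 72 genes were tested, 18 rose and 19 fell (median -0.07). The called share was 66.1%, and 17.9% changed at least 2-fold, beside 51.3% and 10.5% of all tested genes. The ligand genes WNT7B (0.891 to 7.78 CPM, 3.12 ± 0.23), WNT7A (3.80 to 17.1 CPM, 2.18 ± 0.14) and WNT10B (6.81 to 14.97 CPM, 1.14 ± 0.11) and the NOTCH ligand gene JAG1 (37.7 to 91.6 CPM, 1.28 ± 0.06), which lies on 20p, rose. The receptor genes LGR6 (-1.53 ± 0.17), FZD9 (-0.88 ± 0.28) and FZD7 (-0.87 ± 0.07) fell, as did LFNG, which glycosylates NOTCH receptors (-0.85 ± 0.11); FZD9 lost its call without sensitive replicate 3 (adjusted p = 0.0975). Of 32 YAP and TEAD targets, all tested, 12 rose and 11 fell, 1 of them by at least 2-fold: CTGF, a matricellular protein, rose from 83.5 to 185 CPM (1.15 ± 0.05), followed by CYR61 (0.94 ± 0.04). The count of falls was 7 by DESeq2 and with DESeq2 size factors, and 6 to 8 with any 1 library left out. For the YAP and TEAD targets the shares were 71.9% called and 3.12% at least 2-fold.

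Among G-protein coupled receptors and their regulators 49 of 54 genes were tested, 22 rose and 17 fell, 7 and 8 of them at least 2-fold. The called share was 79.6%, and 30.6% changed at least 2-fold, beside 51.3% and 10.5% of all tested genes. For the axon guidance genes below these shares were 69.8% and 25.6%. S1PR3, a sphingosine 1-phosphate receptor, was at 0.101, 0.0915 and 0.233 CPM in sensitive and 5.45, 3.66 and 4.75 CPM in resistant libraries (log2 fold change 5.04 ± 0.29 SE, adjusted p = 5.99e-19), and S1PR2, another receptor of the same lipid, at 7.36, 8.02 and 8.48 CPM and 2.99, 2.79 and 1.97 CPM (log2 fold change -1.61 ± 0.13 SE, adjusted p = 4.00e-14). The endothelin receptors also went apart, with EDNRA higher (3.48 to 16.5 CPM, 2.25 ± 0.15) and EDNRB lower. LPAR1, the lysophosphatidic acid receptor, rose from 15.3 to 47.3 CPM (1.62 ± 0.10). RGS4, which turns off G-protein signals, rose (3.82 ± 0.09), and RGS16 fell (-1.24 ± 0.10). The median was -0.03, or 0.09 with A375 fitted alone. Axon guidance genes (43 of 47 tested, 14 higher, 16 lower, median -0.02) included the netrin receptor DCC (2.08 to 11.6 CPM, 2.48 ± 0.17) and SEMA3D (19.2 to 50.1 CPM, 1.38 ± 0.15) among the rises and SEMA3C (96.5 to 51.4 CPM, -0.91 ± 0.05) and SLIT2 (17.8 to 7.19 CPM, -1.31 ± 0.12) among the falls.

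Antigen presentation divided by class: MHC class II genes fell and class I genes rose slightly. CIITA (16p, chr16:10866222-10943021), the co-activator that switches class II genes on, was at 16.2, 17.1 and 18.8 CPM in sensitive and 3.89, 3.78 and 3.12 CPM in resistant libraries (log2 fold change -2.27 ± 0.14 SE, adjusted p = 1.99e-18). HLA-DRA (6p, chr6:32439842-32445046), the alpha chain of HLA-DR, was at 74.7, 74.2 and 71.03 CPM and 3.02, 2.35 and 2.33 CPM (log2 fold change -4.83 ± 0.10 SE, adjusted p = 9.74e-35). CD74, the invariant chain that guides class II molecules, on 5q, was at 435, 433 and 442 CPM and 66.3, 62.4 and 62.4 CPM (log2 fold change -2.78 ± 0.04 SE, adjusted p = 4.93e-40). For all 3 genes every resistant library lay below every sensitive one. HLA-DQB1 was at 3.09 CPM in the sensitive cells and had no read in the resistant libraries, at least 105-fold lower. HLA-DRB5 had 1 read over the 3 resistant libraries, a ratio of sensitive to resistant of 335 (95% counting interval 59.7 to 13256).

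HLA-DRB1 fell from 11.7 to 0.220 CPM (-5.74 ± 0.28), HLA-DPA1 from 57.2 to 9.99 CPM (-2.52 ± 0.08), and the peptide loading genes HLA-DMA from 13.6 to 5.23 CPM (-1.38 ± 0.13) and HLA-DMB from 3.99 to 0.348 CPM (-3.53 ± 0.31). Of the class II genes named here HLA-DPB1 had the smallest fall, from 22.3, 20.5 and 24.04 CPM to 18.2, 16.8 and 17.2 CPM (log2 fold change -0.35 ± 0.09 SE, adjusted p = 0.00104). The class I genes HLA-B (76.8 to 103 CPM, 0.42 ± 0.04) and HLA-C (91.1 to 107 CPM, 0.24 ± 0.05) and their partner B2M (504 to 679 CPM, 0.43 ± 0.03) rose, and HLA-E rose by 0.13 ± 0.04, a call that was lost without sensitive replicate 2 (adjusted p = 0.0695). HLA genes are near-identical and polymorphic, so reads may be split between them or lost, and single HLA counts are uncertain. CIITA, CD74, HLA-DPA1, HLA-DPB1, HLA-DMA, HLA-DMB, B2M and the class I genes were chosen after their values were seen.

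Class II promoters are known for an X box, bound by the RFX complex, and a Y box, bound by NF-Y, through which CIITA acts. The X box core was searched as AGNNAC followed directly by NGATG (N is any base) and the Y box as ATTGG, on both strands of the 300-base RefSeq promoters. The X box core occurred in 0.872% of all 27305 promoters and in 5 of the 10 class II or CD74 genes with a promoter in the table. The 5 also held the Y box letters, which 35.7% of all promoters hold. The 5 are shown because they belong to genes that fell together. Each is 110 bases on the minus strand of GRCh38.p14, with every match to the X box core or Y box letters in capitals: HLA-DRB1 (chr6:32589869-32589978), HLA-DRB5 (chr6:32530328-32530437), HLA-DQB1 (chr6:32666698-32666807), HLA-DMA (chr6:32953118-32953227) and HLA-DMB (chr6:32941029-32941138). A match is of letters only. In HLA-DMB the only Y box match is on the other strand, further from the X box than the nearest match in the others. The ATTGG letters read CCAAT where they lie on the other strand.
HLA-DRB1: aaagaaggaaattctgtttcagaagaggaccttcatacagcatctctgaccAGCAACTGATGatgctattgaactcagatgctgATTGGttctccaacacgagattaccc
HLA-DRB5: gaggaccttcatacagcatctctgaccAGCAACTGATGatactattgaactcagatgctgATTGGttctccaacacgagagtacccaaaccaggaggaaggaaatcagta
HLA-DQB1: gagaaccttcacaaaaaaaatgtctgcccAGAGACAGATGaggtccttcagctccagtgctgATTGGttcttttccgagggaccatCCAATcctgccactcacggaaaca
HLA-DMA: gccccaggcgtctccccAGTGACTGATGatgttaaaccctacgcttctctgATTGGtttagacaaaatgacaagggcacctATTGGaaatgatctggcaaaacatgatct
HLA-DMB: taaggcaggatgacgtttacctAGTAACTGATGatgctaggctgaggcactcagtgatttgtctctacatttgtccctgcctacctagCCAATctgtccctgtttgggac

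The checkpoint ligand genes CD274 and PDCD1LG2 rose. CD274 (9p, chr9:5450503-5470566), which encodes PD-L1, the ligand that restrains T cells through PD-1, was at 8.06, 7.99 and 7.15 CPM in sensitive and 27.03, 24.4 and 26.5 CPM in resistant libraries (log2 fold change 1.74 ± 0.11 SE, adjusted p = 1.58e-17). PDCD1LG2, its neighbour encoding PD-L2, was at 1.44, 1.56 and 1.20 CPM and 5.14, 4.995 and 5.21 CPM (log2 fold change 1.87 ± 0.21 SE, adjusted p = 5.77e-10). Both lie in the first 15 Mb of chromosome 9, where 32 genes at 2 CPM or more had a median of 0.25. CD59, a shield against complement, rose from 304 to 638 CPM (1.07 ± 0.03). Over the antigen presentation and checkpoint list 43 of 48 genes were tested, 21 rose and 12 fell, with 3 rises and 10 falls of at least 2-fold and a median of 0.21. The called share was 76.7%, and 30.2% changed at least 2-fold, beside 51.3% and 10.5% of all tested genes. Leaving out single libraries gave medians of 0.10 to 0.24, lowest without sensitive replicate 2 and also lower by 1.5 times or more without sensitive replicate 1 or resistant replicate 2.

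**Figure D3:**
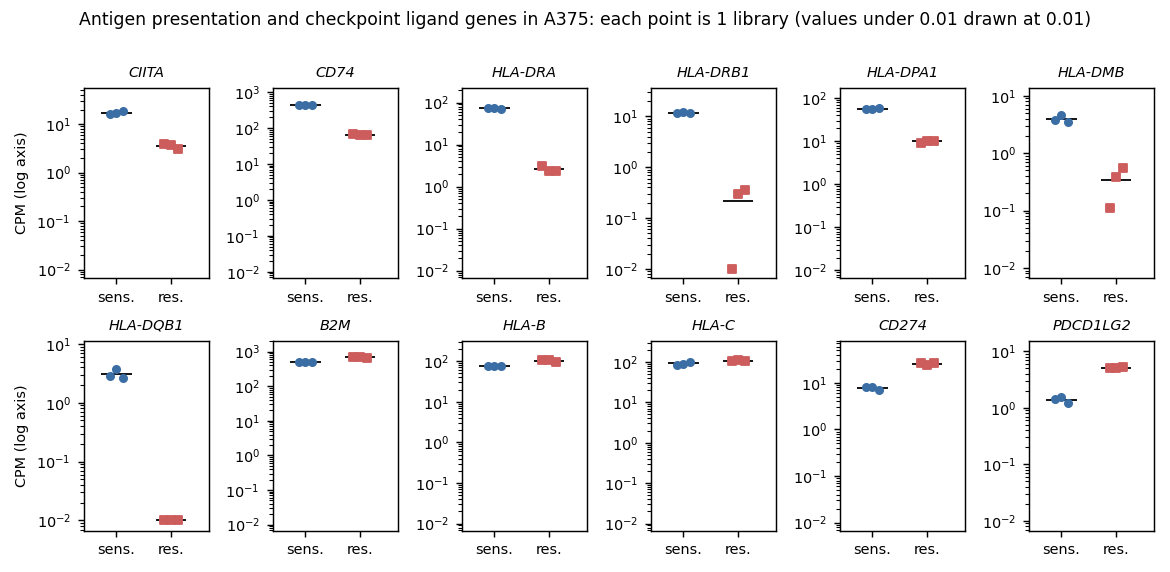
CPM on a log axis in the 3 sensitive (circles) and 3 resistant (squares) A375 libraries for 12 genes, with lines at the means; values under 0.01 CPM are drawn at 0.01. CIITA, CD74 and the class II genes are lower in all resistant libraries, B2M, HLA-B and HLA-C are slightly higher, and CD274 and PDCD1LG2 are higher.

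Interferon response genes rose more often than they fell: 52 of 55 were tested, 26 rose, 7 fell and the median was 0.20. The called share was 63.5%, beside 51.3% of all tested genes (25.0% higher and 26.3% lower). At least 2-fold were 3 rises and 2 falls, 9.62% of the tested members, near the 10.5% of all tested genes. TRIM22, an antiviral ubiquitin ligase, rose from 1.72 to 6.50 CPM (1.91 ± 0.20), IFI44L from 1.49 to 4.57 CPM (1.62 ± 0.25), OASL from 1.61 to 3.90 CPM (1.27 ± 0.24) and IFIT2 from 5.22 to 10.5 CPM (0.99 ± 0.14). GBP2 fell from 4.98 to 1.38 CPM (-1.85 ± 0.26), as did HERC5 (-1.31 ± 0.17) and IFI6 on 1p (-0.83 ± 0.08). GBP2 also lies on 1p, at 89.1 Mb, inside a stretch with a median of 0.02 (below). Among cytokines and chemokines 42 of 56 genes were tested, 15 rose and 12 fell, with a median of 0.14. For these the shares were 64.3% called and 28.6% at least 2-fold. CCL2, the attractant of monocytes, was at 0.857, 1.37 and 0.931 CPM in sensitive and 8.36, 7.64 and 9.44 CPM in resistant libraries (log2 fold change 3.01 ± 0.22 SE, adjusted p = 1.25e-15). TNFSF15 rose from 0.0862 to 2.07 CPM (4.51 ± 0.51). The cytokine osteopontin, SPP1, fell from 6.26 to 2.78 CPM (-1.17 ± 0.09), as did the receptor genes IL1RAP (16.1 to 7.75 CPM, -1.05 ± 0.07) and IL13RA2 (185 to 93.1 CPM, -0.99 ± 0.04).

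Among genes of cell division and survival, changes were small with a few exceptions. Of 52 genes of the cell cycle 51 were tested, 11 rose and 28 fell, with a median of -0.12, or -0.07 over the 42 outside the shifted arms. The called share was 76.5%, and 5.88% changed at least 2-fold, beside 51.3% and 10.5% of all tested genes. CDKN1C, which encodes the cyclin-dependent kinase inhibitor p57, was at 11.9, 13.1 and 10.9 CPM in sensitive and 0.783, 0.714 and 0.636 CPM in resistant libraries (log2 fold change -4.07 ± 0.18 SE, adjusted p = 6.72e-23), while CDKN1A, which encodes p21, was at 176, 179.6 and 185 CPM and 364, 364 and 367 CPM (log2 fold change 1.02 ± 0.04 SE, adjusted p = 5.58e-26). These inhibitors of the same family went opposite ways. Of 43 apoptosis genes 41 were tested, 21 rose and 5 fell (3 without resistant replicate 1), with a median of 0.20. For apoptosis genes these shares were 63.4% called and 12.2% at least 2-fold. BIRC3, an inhibitor of apoptosis, rose from 7.09 to 20.1 CPM (1.51 ± 0.12), as did the pro-apoptotic BMF (2.40 to 4.67 CPM, 0.94 ± 0.15) and BBC3, which encodes PUMA (12.3 to 19.2 CPM, 0.64 ± 0.11), and the anti-apoptotic BCL2 fell from 9.69 to 6.09 CPM (-0.67 ± 0.10).

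Stress, detoxification and transport lists had medians near 0. Called shares were 71.1% (ATF4 list), 70.4% (NRF2 list) and 53.3% (ABC transporters), beside 51.3% of all tested genes. In the same order 17.8%, 7.41% and 23.3% changed at least 2-fold, beside 10.5%. In the ATF4 and amino acid list 45 of 46 genes were tested, 17 rose and 15 fell (median 0). GLUL, glutamine synthetase, was at 10.2, 8.995 and 8.91 CPM in sensitive and 0.224, 0.505 and 0.424 CPM in resistant libraries (log2 fold change -4.61 ± 0.18 SE, adjusted p = 1.10e-24). NUPR1, a stress-induced chromatin protein, rose from 3.19 to 11.4 CPM (1.84 ± 0.10), CHAC1, a glutathione-degrading enzyme, rose (1.03 ± 0.09), and SLC2A1, the glucose transporter GLUT1 on 1p, fell from 364 to 171 CPM (-1.09 ± 0.04). Of 59 NRF2, glutathione and detoxification genes 54 were tested, 19 rose and 19 fell (median 0.03). The largest falls were of the glutathione transferase genes GSTM1, which had 17.4 CPM in sensitive cells and no read in resistant ones (at least 593-fold lower), and GSTM3 (20.6 to 0.0696 CPM, -8.16 ± 0.28); both lie on 1p in a family of near copies, so their counts are uncertain. AKR1C2, an aldo-keto reductase, rose (1.24 ± 0.09), and the cystine transporter gene SLC7A11 fell from 58.01 to 34.3 CPM (-0.76 ± 0.05). Of 36 ABC transporters 30 were tested, 6 rose and 10 fell (median -0.06). ABCA8 rose from 0.117 to 2.83 CPM (4.55 ± 0.41), and the drug exporter genes ABCG2 (8.38 to 5.39 CPM, -0.64 ± 0.15) and ABCC2 (43.7 to 23.7 CPM, -0.89 ± 0.05) fell.

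Of 43 caveola and actin contractility genes 40 were tested, 13 rose and 12 fell (median 0.06). Called shares were 62.5% here, 73.3% for cancer-testis genes and 32.4% for HOX genes (both below), beside 51.3% of all tested genes. At least 2-fold were 10% of the caveola and actin members and 30% of the cancer-testis members, beside 10.5%. ACTA2, smooth muscle actin, rose from 3.62 to 11.4 CPM (1.65 ± 0.14), MYLK, the myosin light chain kinase, from 40.6 to 89.9 CPM (1.15 ± 0.05) and VCL, vinculin, from 213 to 400.1 CPM (0.91 ± 0.04), while MYL9, on 20q, fell (-1.40 ± 0.14). EHD3, a membrane-shaping ATPase of the list, fell from 63.7 to 43.997 CPM by edgeR (log2 fold change -0.53 ± 0.11 SE, adjusted p = 6.06e-04), but not by DESeq2 (adjusted p = 0.783). Of 50 cancer-testis antigen genes 30 were tested, 15 rose and 7 fell (median 0.15). SPANXC (1.64 ± 0.14) and MAGEA11 (0.96 ± 0.07) rose, and MAGEC2 fell (-0.44 ± 0.04); these belong to families of near-identical copies and are uncertain. HOX cluster genes, which record the position of a cell in the embryo, stood at the other end: 34 of 39 were tested, 7 rose, 4 fell, 23 were not called and none changed 2-fold. The 4 falls became 1 by DESeq2, 0 without resistant replicate 3, 3 without sensitive replicate 3 and 1 without any other library.

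**Figure D4:**
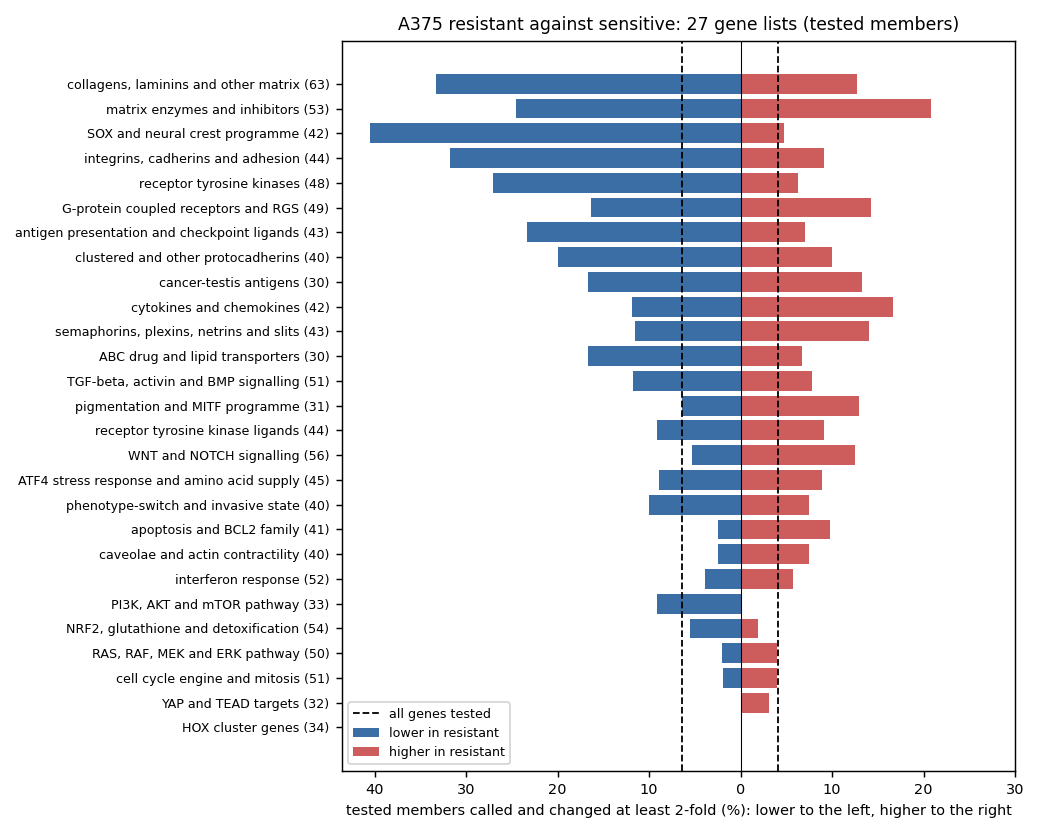
Share of the tested members of each of 27 lists that were called and at least 2-fold lower (blue, left) or higher (red, right) in resistant A375 cells, with the number tested in brackets and dashed lines at the shares of all tested genes, 6.44% lower and 4.06% higher. Matrix, matrix enzyme, SOX and neural crest, adhesion and receptor lists have the longest bars, and HOX genes have none. The lists were chosen with earlier results of these data known.

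Many small falls in A375 lay together in the genome. Genes of 1p, 13q, 20p and 20q at 2 CPM or more were lower by a median of 0.36 to 0.53 on the log2 scale, and running medians in windows of 10 Mb show where. On chromosome 1, 521 genes from 0 to 80 Mb had a median of -0.54, with 92.1% of them below 0. A further 105 genes from 95 to 125 Mb had a median of -0.55. Between these stretches, from 80 to 95 Mb (ADGRL2 to CNN3), 54 genes had a median of 0.02, and its windows ran from -0.09 to 0.07. The fall on 1p thus had a gap with both ends inside the arm, and 1q (563 genes) had a median of -0.05.

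On chromosome 13 the falls ran over all stretches with enough genes, with medians of -0.46 from 15 to 60 Mb, -0.54 from 70 to 85 Mb and -0.38 from 90 to 120 Mb. On chromosome 20 they covered both arms, -0.44 up to 45 Mb and -0.36 beyond. Some stretches were higher: 60 genes of chromosome 11 from 120 to 135 Mb had a median of 0.34, and 93 genes of chromosome X from 110 to 150 Mb had a median of 0.37. Of 522 windows 59 had a median of 0.25 or more in size. The other 37 arms had medians from -0.05 to 0.20, the highest on Xq. In SKMel28 the same stretches of chromosomes 13 and 20 had medians of -0.11 to 0.06. Single SKMel28 windows of chromosome 20 ran from -0.80 (40 to 50 Mb) to 0.28 (50 to 60 Mb). On chromosome 1 the SKMel28 medians were 0 from 0 to 80 Mb, 0.31 in the gap and -0.26 from 95 to 125 Mb, beside -0.24 on 1q. Within the last stretch the SKMel28 windows ran from 0.52 (95 to 105 Mb) to -0.39 (105 to 115 Mb). Only part of that stretch was therefore lower in both lines. These medians were described without a test, and the number of copies of each chromosome was not measured.

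**Figure D5:**
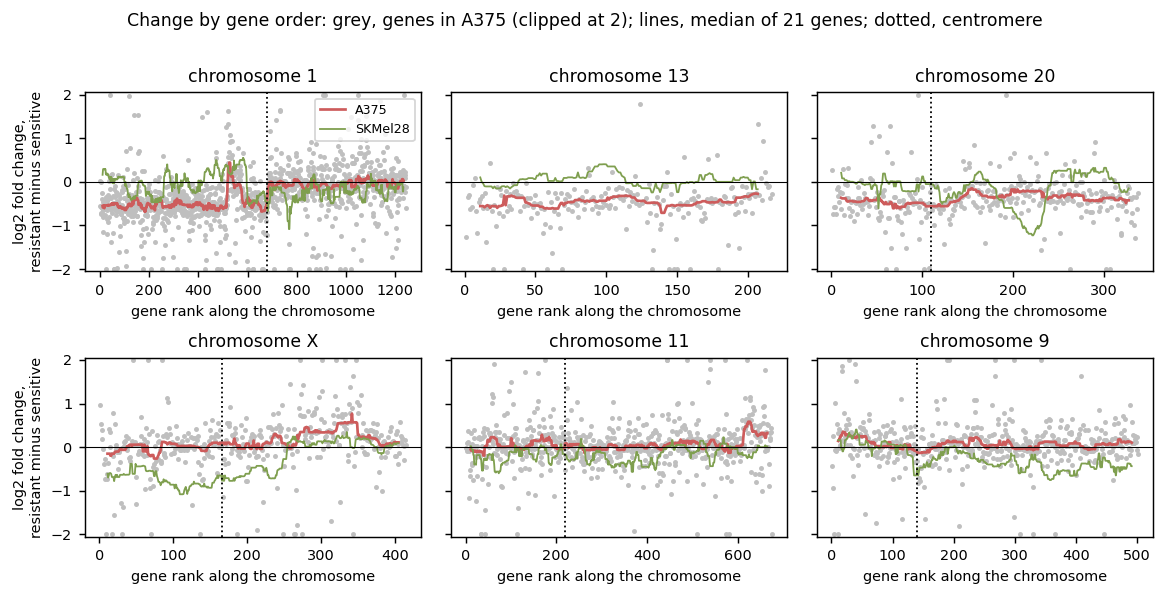
Log2 fold change, resistant minus sensitive, by rank of the gene along 6 chromosomes for genes at 2 CPM or more; grey points, single genes in A375 (clipped at 2); lines, median of 21 neighbouring genes in A375 (red) and SKMel28 (green); dotted line, centromere. The A375 line lies near -0.5 over most of 1p with a gap at 0, below 0 over chromosomes 13 and 20, and above 0 late on chromosomes X and 11.

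Because many listed genes lie on these arms, lists were also read without them. Genes in the gap of 1p were left out with the rest of that arm. Over the 13990 tested genes elsewhere the median was 0.02, 27.0% were called higher and 21.4% lower. Off those arms the receptor tyrosine kinase list kept a median of -0.38, adhesion had -0.30 and matrix -0.33. The falls of NRAS, PIK3CD, MTOR, RPS6KA1 and SLC2A1 (all 1p), of SPRY2, EFNB2 and IRS2 (13q) and of SNAI1 and COL9A3 (20q) are of genes on the shifted arms. Of these, NRAS and MTOR fell by about the median of 1p, and COL9A3 by far more than that of 20q. SOX10, ERBB3, EPHA3 and the class II genes lie on other arms.

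Some neighbouring genes changed together by at least 2-fold. There were 31 runs of at least 3 such genes in a row among tested genes, 24 lower and 7 higher, with 107 genes in all. The longest, 7 genes of the class II region on 6p (chr6:32439842-32763534, HLA-DRA to HLA-DQB2), had a median log2 fold change of -6.5, a fitted value that rests on genes without reads. A run of 6 genes on 1p (chr1:47432133-48776969) went from FOXD2-AS1 to BEND5 and included FOXD2, a forkhead factor, which fell from 7.99 to 1.80 CPM (-2.14 ± 0.14).

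On 8q EYA1, a developmental co-activator, fell from 3.88 to 0.0678 CPM (-5.74 ± 0.31) together with MSC-AS1, MSC and TRPA1. On 18p ANKRD20A5P, CXADRP3, POTEC and ANKRD30B were higher; CXADRP3 and POTEC had 1 read each in the sensitive libraries and belong to families of near copies. Runs of 3 genes, chosen after their values were seen, held IL1R1, IL1RL1 and IL18R1 on 2q and KRT6B, KRT6A and KRT5 on 12q. IL1RL1, the interleukin-33 receptor, was at 5.90, 4.02 and 5.82 CPM in sensitive cells and had no read in resistant cells, at least 179-fold lower, and IL18R1 fell from 4.05 to 0.138 CPM (-4.85 ± 0.41). KRT6B fell from 2.99 to 0.148 CPM (-4.31 ± 0.44), and KRT5 had 1 read over the resistant libraries, a ratio of sensitive to resistant of 91.9 (95% counting interval 16.1 to 3669). IL1R1 lost its call without any of 4 single libraries.

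The change in A375 was set against the change in SKMel28, which shares no library with it, by a test of the difference. It was called for 63.8% of the tested genes. Of 26 core genes of melanoma signalling and state, 25 were tested, and 22 differed between the lines. ERBB3 fell in A375 and by -0.10 in SKMel28 (difference -4.96 ± 0.08 SE, adjusted p = 5.44e-40). IGF1R fell in A375 (-0.82) and rose in SKMel28 (0.77; difference -1.58 ± 0.06 SE, adjusted p = 3.15e-26). EGFR and AXL rose in A375 and fell in SKMel28, and 14 of the core genes were called in both lines with opposite signs. SPRY2 fell in both lines, by different amounts. The difference was not called for BRAF (adjusted p = 0.142), PDGFRB (adjusted p = 0.769) and ZEB1 (adjusted p = 0.179).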

How the data were processed

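Gene counts of 12 poly(A) RNA libraries were used, 3 for each of 4 groups assigned by title. The deposited files hold raw counts of reads per gene symbol. HISAT2, StringTie and GRCh38.p12 appear in the tools and builds of the submitters' processing notes, while the names of the deposited files point to STAR, untrimmed reads and unstranded counting, so the aligner is not settled. If strand was not used, as those names say, reads of a gene and of one that overlaps it on the other strand are mixed. Summary rows of reads without a gene (17.9% to 19.5% of the reads in the A375 libraries) were left out of library sizes and tests.

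The counts were fitted in R 4.3.3 with edgeR 4.0.16: filterByExpr, TMM, 4 group means over all 12 libraries and the robust quasi-likelihood F test, two-sided, with Benjamini-Hochberg adjustment over the 15506 of 26499 genes tested. All 12 libraries share 1 estimate of the spread. Genes were called at an adjusted p below 0.05. CPM were computed on reads of genes after TMM, and a fold change is given on the log2 scale with its standard error. This error is the size of the log2 fold change divided by the square root of the F statistic. Where a group has few reads, it can be smaller than counting error. Precision was set by 28496518 to 37721363 gene reads a library, at least 30.1 reads for each CPM. A group without reads was set at a floor of 3 reads over its libraries (0.0293 CPM), and intervals and floors cover counting error only.

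On simulated counts 42 of 50 genes changed 1.25-fold and all 50 changed 2-fold were recovered, with 10 false calls among 15062 genes. Replicate pairs differed by more than counting error (chi-square over degrees of freedom 2.81 to 4.32), so none was merged. Symbols were matched to GENCODE 29 (GRCh38) for positions: 23887 by symbol, 697 through another symbol and 1915 not at all. Promoter sequences came from RefSeq (GRCh38.p14). List medians used every tested member.

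The members and the 27 gene lists (1272 genes) were chosen with earlier results of these data known. Genes were named by rule: the 15 largest rises and falls at 10 CPM or more without overlap, the 10 largest gains and losses in CPM, 26 core genes, up to 4 members a list in each direction at 2 CPM or more, the 5 longest runs of neighbours, and markers; some genes the rule names are not reported here, and the text marks each gene picked outside it, with its value known. Alternatives were A375 alone, DESeq2 1.42.0, other scalings, no filter, a replicate block and leaving out each library.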

Additional observations from a re-analysis of the deposited data

Results flagged for a closer look

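The change with resistance differed between A375 and SKMel28 for 9891 of the 15506 genes tested, by edgeR's interaction contrast at an adjusted p below 0.05. The core genes named below differed in the same test. Each value is the log2 fold change in A375 less that in SKMel28, with its standard error.

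Of the lineage genes, SOX10 fell in both lines, by a log2 fold change of -11.18 in A375 and -0.34 in SKMel28 (difference -10.84 ± 0.11). NGFR also fell in both, but more in SKMel28, -0.82 against -4.17 (difference 3.35 ± 0.07). SOX9 rose in A375 and fell in SKMel28 (difference 4.38 ± 0.23), and MITF fell in A375 and rose in SKMel28 (difference -1.02 ± 0.06).

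Of the receptors, ERBB3 fell further in A375 (difference -4.96 ± 0.08). MET rose in both lines, by 0.32 in A375 and 2.18 in SKMel28 (difference -1.86 ± 0.05). EGFR (difference 1.07 ± 0.16) and AXL (difference 0.47 ± 0.08) rose in A375 and fell in SKMel28, while IGF1R did the opposite (difference -1.58 ± 0.06).

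In the ERK cascade, DUSP6 (difference 1.60 ± 0.05), MAP2K1 (difference 0.78 ± 0.06), CCND1 (difference 1.90 ± 0.04), FOSL1 (difference 2.41 ± 0.06), JUN (difference 0.80 ± 0.07) and MYC (difference 1.36 ± 0.07) rose in A375 and fell in SKMel28. SPRY2 fell in both (difference 0.47 ± 0.07). NRAS fell in A375 and was not called in SKMel28 (difference -0.35 ± 0.06), and MAP3K8 rose in SKMel28 and was not called in A375 (difference -1.18 ± 0.42). Of the remaining genes, CDKN1A rose in A375 and fell in SKMel28 (difference 1.34 ± 0.06), and WNT5A (difference -1.58 ± 0.23) and ZEB2 (difference -0.87 ± 0.07) fell in A375 and rose in SKMel28.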

How the results depend on the processing

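No named gene that was called changed direction under any alternative run. Over all 7959 calls only the number kept in the same direction was counted. It ran from 7001 (without sensitive replicate 1) to 7883 (replicate block), and the rest were not split into lost and reversed. Over the named genes, a call was lost 38 times when a library was left out and 9 times under the other settings. Genes called numbered 3942 higher and 4135 lower with the replicate block, which kept 7883 of the 7959 calls. The numbers are not shown to pair the samples: deviations of same-numbered A375 libraries correlated at 0.030, -0.002 and 0.005, and not every library correlated best with its own number.

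Fitted on the A375 libraries alone, the receptor tyrosine kinase median was -0.24, the WNT and NOTCH median -0.14, the G-protein coupled receptor median 0.09 and the count of higher pigmentation genes 6. Lower YAP and TEAD targets numbered 7 by DESeq2 and 7 with DESeq2 size factors, and lower HOX genes numbered 1 by DESeq2. The cause was not tested.

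Leaving out each library in turn gave ranges of medians, less that of all genes: receptors -0.36 to -0.22, ligands 0.15 to 0.21, RAS and ERK -0.04 to 0.05, pigmentation 0.11 to 0.39, SOX and neural crest -0.91 to -0.69, matrix enzymes -0.09 to -0.04, YAP and TEAD 0.04 to 0.06, TGF-beta 0.02 to 0.10, interferon 0.17 to 0.22, antigen presentation 0.10 to 0.24, apoptosis 0.15 to 0.21, ATF4 -0.02 to 0.03, ABC transporters -0.12 to -0.01, caveolae and actin 0.04 to 0.09, and semaphorins -0.11 to 0.03. The median of 1p ran from -0.52 to -0.51, that of 20p from -0.48 to -0.44, that of chromosome 11 from 120 to 135 Mb from 0.33 to 0.38 and that of chromosome X from 110 to 150 Mb from 0.38 to 0.41. Counts ran from 6 to 10 for higher and 4 to 7 for lower pigmentation genes, 6 to 8 for lower YAP and TEAD targets, 0 to 3 for lower HOX genes and 3 to 5 for lower apoptosis genes. The medians of the RAS and ERK, semaphorin, ATF4 and G-protein coupled receptor lists, all near 0, had both signs over these settings. Genes under about 1 CPM rest on some 30 reads a library or fewer.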
